A study of Mus musculus with 108 samples.

Results

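The change in ribosomal RNA (rRNA) and its precursor was followed from the germinal vesicle (GV) stage, before meiosis resumes, to the metaphase II (MII) egg, in single mouse oocytes with and without the ribonuclease EXOSC10. Of the 108 samples of the series, the 22 rRNA segment files were used, as chosen by their titles: 8 GV and 3 MII control oocytes, and 7 GV and 4 MII oocytes that lack Exosc10 through an oocyte-specific knockout (cKO). Each file holds read counts for 7 segments of the precursor, and each oocyte also has a RiboMinus library (ribosomal RNA depleted, no selection for polyadenylated RNA) under the same female and oocyte number. GV oocytes were handled in culture, and MII eggs were taken from the oviduct. The labels give neither the Cre driver and floxed allele nor the strain, the age of the females or the genotype of the controls beyond the word control. GV controls came from females V1132 and V1133 (4 oocytes each), and all 3 MII controls came from female V1145. GV cKO oocytes came from V1126 (3 oocytes) and V1131 (4 oocytes), and MII cKO oocytes from V1166 and V1167 (2 oocytes each). No female gave both stages, so stage and female cannot be told apart in either genotype, and oocytes of one female are not independent.

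Ribosomal RNA is transcribed by RNA polymerase I in the nucleolus as a single precursor that carries 3 mature rRNAs (18S, 5.8S and 28S) and 4 spacers. The external transcribed spacers (5' ETS and 3' ETS) flank the mature parts, and the internal transcribed spacers ITS1 and ITS2 separate 18S from 5.8S and 5.8S from 28S. Spacers are cut out and degraded as ribosomal subunits mature, and the nuclear RNA exosome, of which EXOSC10 is a catalytic subunit, degrades the excised 5' ETS and trims the ITS2 remnant left on 5.8S. Fully grown mouse oocytes have largely stopped rRNA transcription, and the nucleolus disassembles when the germinal vesicle breaks down.

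On the authors' rDNA reference the 5' ETS runs from position 1 to 4007 and 18S from 4008 to 5877. ITS1 runs from 5878 to 6877, 5.8S from 6878 to 7034 and ITS2 from 7035 to 8122. 28S runs from 8123 to 12852 and the 3' ETS from 12852 to 13403. The files name the segments by position alone, and the names were assigned from the order along the precursor. Total counts over the 7 segments ranged from 855952 to 1473517 in GV controls and from 482609 to 604349 in MII controls. They ranged from 790753 to 1105224 in GV cKO oocytes and from 749563 to 1344559 in MII cKO oocytes. In the matching RiboMinus libraries Exosc10 (ENSMUSG00000017264) was at 91.6 to 159 counts per 1000000 (CPM) in GV controls and 81.9 to 103 CPM in MII controls. It was at 0.806 to 8.69 CPM in GV cKO and 0.467 to 3.75 CPM in MII cKO oocytes, so every oocyte matched its label. All 12 oocyte markers were detected in each of these 22 libraries. The 14 granulosa and cumulus markers, of cells that surround the oocyte, summed to 103 to 143 CPM in GV controls, 144 to 157 CPM in MII controls, 107 to 210.5 CPM in GV cKO and 73.6 to 125 CPM in MII cKO oocytes. Of these 14, Ptx3 and Tnfaip6 were at 0 in 21 of 22 libraries, Amhr2 in 16, Foxl2 in 13 and Amh in 11. Fshr was at 0 in 7, Inha and Has2 in 6 each, Ptgs2 in 3 and Star in 2. Nr5a2 (53.4 to 129 CPM), Cyp19a1 (6.11 to 39.7), Kitl (2.35 to 27.9) and Inhba (0.196 to 14) were detected in all 22. The highest values of Amh, Ptgs2, Fshr and Inha in a library were 28.4, 23.4, 15.4 and 14.6 CPM. The part of other cells in the rRNA values was not tested.

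The first comparison asked whether spacer RNA as a whole differed between the stages. The 4 spacers together had a lower median at MII than at GV in cKO oocytes, but the stages overlapped in both genotypes and neither difference passed the test. Spacer counts per 1000000 mature rRNA counts were 2039, 788.5 and 7743 in the GV cKO oocytes of V1126, and 13607, 11803, 13574 and 11406 in those of V1131. At MII they were 1307 and 1059 in V1166 and 806.5 and 830.7 in V1167. All 4 MII cKO eggs were under the GV median of 11406, and oocyte 3 of V1126 was lower than each of them. The mean log2 ratio differed by −2.63 (SE 0.63, MII minus GV, n = 4 and 7), a 6.18-fold lower geometric mean. The two-sided exact permutation test gave p = 0.0303, and 0.0606 after Benjamini-Hochberg adjustment over both genotypes, which misses the threshold of 0.05. Without female V1131 the difference was −1.24 (adjusted p = 0.291, exact permutation test), and without oocyte 3 of V1126 it was −3.12 (adjusted p = 0.019). With 18S alone as the denominator it was −2.61 (adjusted p = 0.0485). Controls ranged from 741.6 to 1815 at GV, with a median of 973.9, and were at 1002, 810.5 and 825.4 at MII. Their difference was −0.30 (SE 0.18, n = 3 and 8, exact permutation p = 0.291).

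ITS2 was the segment whose stages did not overlap in cKO oocytes, being lower in all 4 MII eggs than in all 7 GV oocytes. ITS2 counts per 1000000 18S counts were 2182, 2121 and 3529 in the GV cKO oocytes of V1126, and 5639, 2791, 3039 and 5881 in those of V1131. At MII they were 1122 and 1082 in V1166 and 672.6 and 605.7 in V1167. The eggs of both MII females were thus below every GV oocyte. The mean was 3597 ± 1556 (SD, n = 7) at GV and 870.5 ± 269 (SD, n = 4) at MII. The log2 difference was −1.99 (SE 0.32), 3.96-fold lower at MII. The exact permutation p was 0.00606, the smallest that 7 against 4 oocytes allow, and the adjusted p over 12 tests was 0.0727, above the threshold of 0.05. A lone segment at the smallest p cannot go below that value. Leaving out each of the 4 cKO females in turn gave differences between −2.38 and −1.59. With female means in place of oocytes the value was −1.94, and an exact permutation test of 2 against 2 females cannot give a p below 0.333.

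Control ITS2 did not pass the test between the stages. It was 2158 to 2509 per 1000000 18S in the GV oocytes of V1132 and 2430 to 3727 in those of V1133, and 2544, 1936 and 2013 in the MII eggs of V1145. Of the 3 MII eggs, 2 were below every GV oocyte and 1 was above the GV median. The log2 difference was −0.33 (SE 0.16, exact permutation p = 0.0848, adjusted p = 0.194), and it was 0.06 with TMM sizes in place of 18S. The level in MII controls was thus above that of every MII cKO egg, whereas the GV ranges of the genotypes overlapped.

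**Figure D1:**
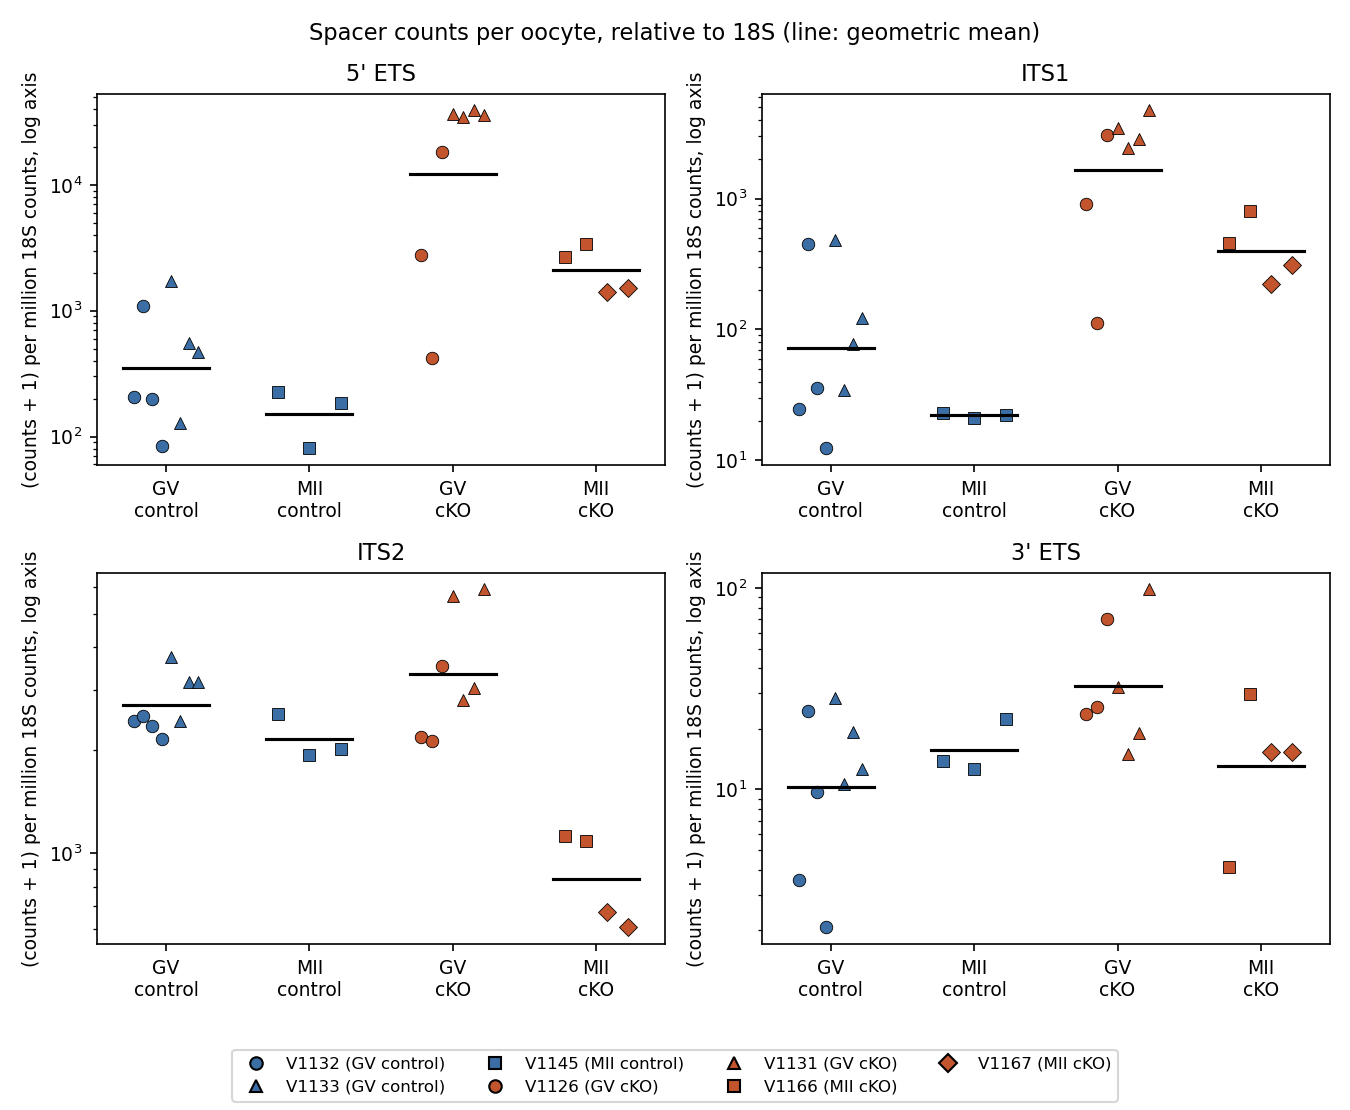
Counts plus 1 of each spacer per 1000000 18S counts (log axis) for every oocyte, with marker shapes for females and lines for geometric means. In the ITS2 panel the 4 MII cKO eggs, at 606 to 1122, sit below all other oocytes, while in the 5' ETS panel the GV cKO oocytes spread from 415 to 39038.

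The 5' ETS, the long leader of the precursor, varied far more between GV cKO oocytes than ITS2 did. It was at 2783, 414.8 and 18340 counts per 1000000 18S in the oocytes of V1126 and at 36847, 34734, 39038 and 36198 in those of V1131. At MII the cKO eggs were at 2658 and 3411 (V1166) and at 1406 and 1515 (V1167), each of them below at least 5 of the 7 GV oocytes and above oocyte 3 of V1126. The log2 difference was −2.53 (SE 1.01, exact permutation p = 0.0788, adjusted p = 0.194). It was −0.40 without V1131 and −4.13 without V1126, so its size rests on which GV female is used. Control 5' ETS ranged from 82.5 to 1725 at GV, with a median of 333.4, and was 221.6, 76.3 and 178.9 at MII. All 3 MII values were under the GV median but within or just below the GV range, with a log2 difference of −1.22 (SE 0.71, adjusted exact permutation p = 0.323).

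ITS1 lies between 18S and 5.8S. In GV cKO oocytes it ranged from 106.9 to 4706 per 1000000 18S with a median of 2835, and at MII it was 455.4, 790.4, 217.8 and 306.1. The log2 difference was −2.06 (SE 0.81, exact permutation p = 0.0788, adjusted p = 0.194), and −0.77 without V1131. In controls ITS1 was 10.3 to 475.7 at GV and 18.5, 16.9 and 16.8 at MII, from only 3 or 4 counts per MII egg. The control difference was −1.71 (SE 0.68, adjusted exact permutation p = 0.291). Its size depended on the count added and on how oocytes were averaged. It was −0.78 with 10 added in place of 1. By edgeR, which fits counts and not mean logarithms, it was −3.09 (adjusted p = 0.147). The counts summed over oocytes gave an MII to GV ratio of 0.123 (95% interval 0.0609 to 0.223, counting error only). Both of these give more weight to oocytes with high counts: the GV control mean was 151.3 per 1000000 18S and the median 53.8. By edgeR the cKO difference was −2.50. The Spearman correlation of ITS1 with the 5' ETS was 0.963 over all 22 oocytes, 0.905 within the 8 GV controls and 0.679 within the 7 GV cKO oocytes. That of ITS2 with the 5' ETS was 0.394 over all 22, but 0.833 within GV controls and 0.679 within GV cKO oocytes. On the log2 scale Pearson's correlation with the 5' ETS within GV cKO oocytes was 0.965 for ITS1 and 0.705 for ITS2. The pooled values include the differences in level between groups. These values share the 18S denominator, and oocytes share females.

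The 3' ETS, the tail of the precursor, was close to the detection limit. It had 0 to 8 counts in GV controls, 2, 2 and 3 in MII controls, 3 to 23 in GV cKO and 0, 4, 3 and 6 in MII cKO oocytes. Summed over oocytes, its level per 18S at MII was 0.320 of that at GV in cKO (95% interval of the ratio 0.163 to 0.582) and 1.05 in controls (0.389 to 2.45). These intervals cover counting error alone. With oocytes as replicates the log2 difference was −1.32 in cKO (SE 0.70, adjusted exact permutation p = 0.194) and 0.61 in controls (SE 0.53, adjusted p = 0.596). The direction in controls was not stable. It was −0.20 with no count added, where the 2 GV controls at 0 counts have no logarithm and drop out. It was −0.06 without V1132, the female of both these oocytes. Where the count was 0, in 2 GV controls and 1 MII cKO egg, the level cannot be told from any below 3 counts.

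No mature segment passed the test between stages. The 5.8S level per 18S differed by −0.16 in controls (SE 0.19) and 0.22 in cKO oocytes (SE 0.16) on the log2 scale, with adjusted exact permutation p-values of 0.767 and 0.291. The 28S level per 18S differed by −0.30 in controls (SE 0.11, exact permutation p = 0.0485, adjusted p = 0.194) and by 0.01 in cKO oocytes (SE 0.27, adjusted p = 0.915). With TMM sizes in place of 18S the control values turned to 0.23 for 5.8S and 0.08 for 28S. The 28S to 18S ratio of counts was 1.78, 1.502 and 1.68 in the 3 MII controls and 1.70 to 2.77 in GV controls. In MII cKO eggs it was 2.22, 3.98, 1.84 and 1.92, and oocyte 2 of V1166 was the high one. As a share of the rRNA total, 18S averaged 32.9% ± 3.51 (SD, n = 8) in GV and 37.5% ± 1.995 (n = 3) in MII controls. It averaged 29.6% ± 3.07 (n = 7) in GV and 29.9% ± 6.88 (n = 4) in MII cKO oocytes. All 3 MII controls were above the GV median of 33.0% (log2 difference 0.20, exact permutation p = 0.0485, adjusted over 14 tests 0.133).

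Relative to the rRNA total in place of 18S, the spacers gave similar values. ITS2 differed by −1.997 in cKO oocytes (SE 0.25, exact permutation p = 0.00606, adjusted p = 0.0848) and by −0.13 in controls (SE 0.12, adjusted p = 0.463). The 5' ETS differed by −2.54, ITS1 by −2.07 and the 3' ETS by −1.33 in cKO oocytes, each with an adjusted exact permutation p of 0.133. By these tests 0 of 6 segments passed relative to 18S and 0 of 7 relative to the total, in either genotype. At an unadjusted p under 0.05 there was 1 segment in controls (28S) and 1 in cKO oocytes (ITS2) relative to 18S, and 2 and 2 relative to the total. The edgeR quasi-likelihood test on the counts, the alternative tool, called 0 segments in controls and 3 in cKO oocytes with either denominator. With 18S as the offset these were the 5' ETS (log2 −3.42, edgeR adjusted p = 0.0433), ITS1 (−2.50, 0.0433) and ITS2 (−2.05, 0.00289). The permutation test is the main one here, and edgeR's calls were not made by it.

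**Figure D2:**
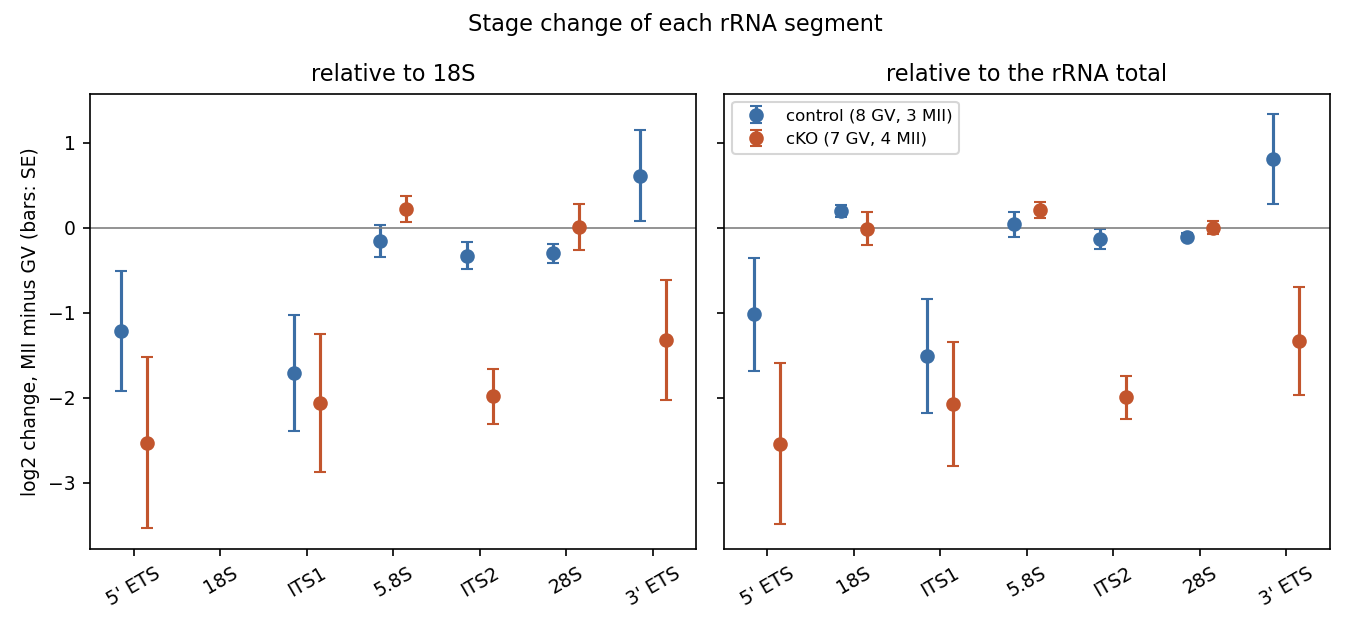
Log2 difference between MII and GV for each segment relative to 18S (left) and to the rRNA total (right), with points for the mean difference and bars for its standard error. In cKO oocytes ITS2 stands at −1.99 and −1.997 with short bars, the 5' ETS and ITS1 are as low but with wide bars, and the mature segments lie near 0.

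Whether the stage change itself differed between the genotypes was tested by exchanging genotype labels within each stage, over all 225225 arrangements. For the spacer sum, the cKO change was lower than the control change by −2.33 on the log2 scale (SE 0.66, exact permutation p = 0.00833, adjusted over 7 tests 0.0292). For ITS2 the difference was −1.66 (SE 0.36, p = 0.00635, adjusted 0.0292, exact permutation). The other 5 segments did not pass: 3' ETS −1.93 (adjusted p = 0.106), 5' ETS −1.31 (0.685), ITS1 −0.36 (0.884), 5.8S 0.38 (0.633) and 28S 0.31 (0.685), all by the exact permutation test. Without V1131 the 5' ETS turned to 0.81 and ITS1 to 0.94, and ITS1 also turned without V1132 (0.27), V1167 (0.25) or 1 GV control oocyte (0.0093). Without V1166 28S turned to −0.02. The spacer sum also had an unlike make-up in the genotypes. The 5' ETS averaged 66.8% of spacer counts in GV cKO oocytes, whereas ITS2 averaged 83.0% in GV controls. The −2.33 thus compares different mixtures of spacers. The parts of the ITS2 difference were unlike those of the spacer sum. The cKO minus control difference in ITS2 was 0.31 at GV and −1.35 at MII, and in the spacer sum it was 2.49 at GV and 0.16 at MII. For the 5' ETS it was 5.12 at GV and 3.81 at MII, and for ITS1 4.52 and 4.16. The test takes genotypes and oocytes as exchangeable within each stage, although oocytes share females. It thus assumes no genotype difference at either stage, which is more than equal stage changes. For the 5' ETS and ITS1 the genotypes were far apart at both stages, which widens the permuted differences. Their p-values therefore cannot tell whether the changes were alike. With the means of the 7 females in place of oocytes, the difference was −2.16 for the spacer sum and −1.61 for ITS2, each with an exact permutation p of 0.222 (adjusted 0.519). Genotype can be exchanged over females in only 18 ways, so that test cannot go below p = 0.111. Both lost their call without any one of the 3 MII controls (adjusted exact permutation p 0.0515 to 0.0519). Over 18S alone the spacer sum gave −2.11 (adjusted exact permutation p = 0.106). Without V1131 it gave −0.94 (adjusted p = 0.449, exact permutation test), and it also missed the threshold without V1132 (−2.18, 0.206), V1133 (−2.48, 0.0945) or V1167 (−2.07, 0.0778). The same held without oocyte 4 of V1126 or any 1 of the 4 oocytes of V1131 (adjusted exact permutation p 0.0588 to 0.06). ITS2 missed the threshold without V1131 (−1.27, adjusted p = 0.279), V1132 (−1.47, 0.17), V1167 (−1.27, 0.0778) or V1166 (−2.05, 0.0572), all by the exact permutation test. It also missed without oocyte 4 of V1126 or oocyte 1 or 4 of V1131 (−1.65 to −1.52, adjusted exact permutation p 0.0547 to 0.06). The 3' ETS passed only without oocyte 2 of V1166, its egg with 4 counts (−2.33, adjusted exact permutation p = 0.0259).

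The make-up of the spacer RNA showed what remained at each stage. Per kilobase, ITS2 was the most abundant spacer in every control oocyte, at a median of 2270 counts per kb per 1000000 18S at GV and 1850 at MII. The control medians of the 5' ETS were 83.2 and 44.7, and those of ITS1 53.8 and 16.9, on the same scale. ITS2 made up 61.7% to 95.9% of spacer counts in GV controls and 90.5% to 95.01% in MII controls. In cKO oocytes the medians per kb at GV were 8668 for the 5' ETS, 2835 for ITS1 and 2793 for ITS2, and at MII they were 520.8, 380.8 and 806.2. ITS2 was thus the most abundant spacer per kb in the MII cKO eggs too, at 1.17 to 1.76 times the 5' ETS, against 41.4 to 93.5 times in MII controls. By counts the 5' ETS made up 15.6% to 86.9% of the spacer RNA of GV cKO oocytes (median 77.2%) and 60.9% to 64.3% in MII cKO eggs. In GV controls it made up 3.66% to 29.0%, and in MII controls 3.74% to 8.04%. These comparisons between spacers are descriptions with no test.

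**Figure D3:**
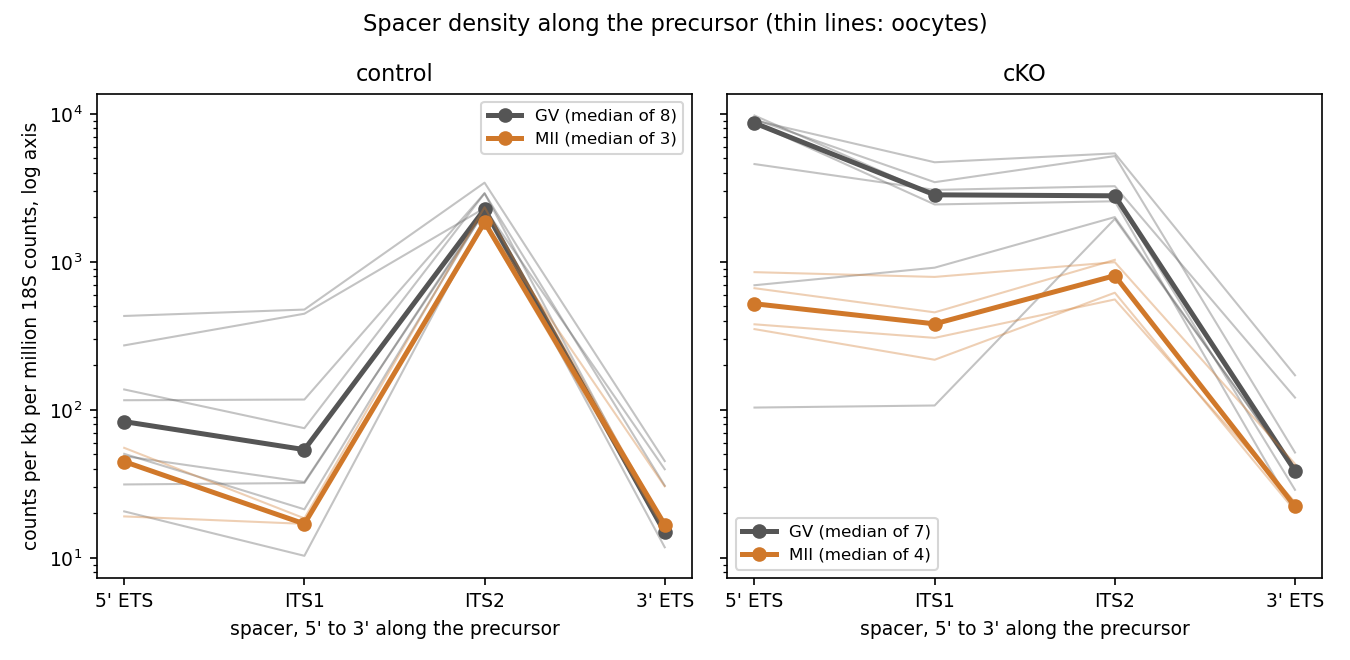
Counts per kb per 1000000 18S counts (log axis) of the 4 spacers in their order along the precursor, with thin lines for oocytes and thick lines for stage medians; values of 0 are not drawn. Controls peak at ITS2 at both stages (medians 2270 and 1850), whereas the GV cKO profile starts at 8668 in the 5' ETS and the MII cKO profile lies between 381 and 806 from the 5' ETS to ITS2.

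Oocyte 3 of V1126 was the GV cKO oocyte closest to controls. Its 5' ETS level was 414.8 per 1000000 18S, within the GV control range, and ITS2 made up 79.6% of its spacer counts, against 6.76% to 37.0% in the other 6 GV cKO oocytes. Its Exosc10 level was 4.39 CPM, within the cKO range and far below the lowest control. Among GV cKO oocytes only oocyte 2 of V1126 had more Exosc10, at 8.69 CPM, and that oocyte had the next lowest 5' ETS, at 2783. The remaining GV cKO oocytes were at 0.806 to 4.37 CPM. A link between the Exosc10 that remained and the 5' ETS level was not tested.

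**Figure D4:**
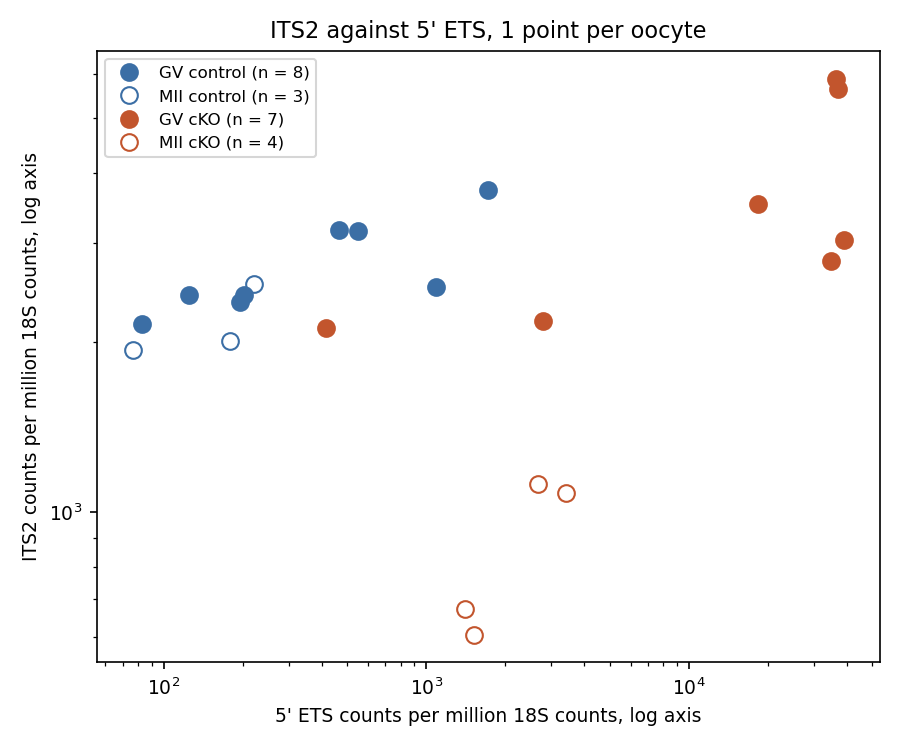
ITS2 against 5' ETS counts per 1000000 18S counts (both log axes), 1 point per oocyte, filled for GV and open for MII. The MII cKO eggs lie apart at low ITS2 (606 to 1122) with 5' ETS levels of 1406 to 3411, while the MII controls, at 76.3 to 222 for the 5' ETS and 1936 to 2544 for ITS2, overlap the GV controls in part: 2 of the 3 have less ITS2 than every GV control.

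The genes that make and process rRNA were examined in the RiboMinus libraries of the same oocytes, through 5 lists of 97 genes. In controls edgeR called 38 of 97 genes between GV and MII (22 higher and 16 lower at MII), where 30.9% of all 16340 tested genes were called. In cKO oocytes it called 22 of 97 (10 higher and 12 lower), where 16.1% of all 17234 tested genes were called. By direction, 15% of all genes tested rose and 15.8% fell in controls, and 7.4% rose and 8.67% fell in cKO oocytes. The median log2 change of the 97 genes was −0.04 in controls and −0.09 in cKO oocytes, beside −0.03 and 0.00 for all genes tested. The cKO count was 1 without female V1131, 7 without V1166, 14 without oocyte 1 of V1166, 30 without V1126 and 29 by DESeq2. With counts summed per female it was 0 (edgeR adjusted p), with 22 genes at an unadjusted p under 0.05. Fewer molecules of one gene and more of the others cannot be told apart in these relative values.

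Among 18 genes of RNA polymerase I transcription, 3 rose and 1 fell in controls, and 0 rose and 3 fell in cKO oocytes. Ubtf, which encodes the nucleolar factor UBF that keeps rDNA open for transcription, was at 62.9, 14.1 and 80.1 CPM in the GV cKO oocytes of V1126 and at 217, 168, 190 and 107 CPM in those of V1131. In MII cKO eggs it was at 12.1, 29.0, 29.0 and 7.55 CPM. It fell by 2.61 on the log2 scale (SE 0.63, edgeR adjusted p = 0.0143). Oocyte 3 of V1126, the one with the lowest 5' ETS, was also the only GV cKO oocyte with Ubtf inside the MII cKO range. In GV controls Ubtf was at 10.3 to 44.0 CPM, with a control stage change of −0.80 (adjusted p = 0.098, edgeR). The difference between the genotypes' changes was −1.82 and did not pass (edgeR adjusted p = 0.0835). Over the 7 GV cKO oocytes the Spearman correlation of Ubtf CPM with the 5' ETS per 18S was 0.929, over 8 GV controls 0.405, and over all 22 oocytes 0.695. This pair was chosen after its values were seen, and the points share oocytes and females. Twistnb, a subunit of RNA polymerase I, fell in cKO oocytes from 23.0 ± 11.5 (SD, n = 7) to 3.61 ± 1.36 CPM (n = 4) (log2 −2.67, SE 0.46, edgeR adjusted p = 0.00352). In controls Taf1b, part of the selectivity factor that brings the polymerase to the promoter, rose by 1.07 on the log2 scale (edgeR adjusted p = 4.87e-06) and Polr1d, a subunit shared by RNA polymerases I and III, rose by 0.84 (6.62e-05), while Polr1a, the largest subunit, fell by 0.68 (adjusted p = 0.0018) and in cKO oocytes by 0.73 (0.0458).

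Of 30 genes of 5' ETS cleavage and the small subunit processome, the particle that assembles on the 5' end of the precursor, 8 rose and 7 fell in controls and 3 rose and 4 fell in cKO oocytes. Tbl3, a processome protein, fell in both: by 1.35 in controls (edgeR adjusted p = 1.27e-05) and by 1.22 in cKO oocytes (0.00977). Pwp2, of the same particle, was at 127, 96.7 and 160 CPM in V1126 and at 190 to 240 CPM in V1131 at GV, and at 33.6 to 103 CPM in MII cKO eggs. It fell by 1.40 in cKO oocytes (SE 0.31, edgeR adjusted p = 0.0097) and by 0.65 in controls (0.000971). Mphosph10, which joins the U3 particle, rose in controls by 1.09 (SE 0.12, edgeR adjusted p = 1.12e-06). Its change in cKO oocytes was −0.09 (edgeR adjusted p = 0.89), and the change differed between genotypes by −1.20 (edgeR adjusted p = 0.0466). Wdr3, also of the processome, fell in controls by 1.502 (edgeR adjusted p = 0.0231) and Snu13, a protein of box C/D snoRNA particles, rose by 1.05 (0.000302). In cKO oocytes Rrp9, a protein of the U3 particle, rose by 0.85 (edgeR adjusted p = 0.0407). Wdr43 rose in both genotypes, by 0.65 in controls (edgeR adjusted p = 3.82e-05) and by 0.70 in cKO oocytes (0.0106).

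Of 13 genes of ITS1 cleavage and 18S 3' end maturation, 4 rose and 1 fell in controls and 2 rose and 1 fell in cKO oocytes. Riok2, a kinase that acts late in the 40S subunit, fell in both, by 0.54 (edgeR adjusted p = 0.0129) and by 1.29 (0.00628). Ltv1, an export and assembly factor of the small subunit, was at 94.8 to 129 CPM in GV controls and at 230, 303 and 261 CPM in MII controls, which did not overlap (log2 1.25, SE 0.12, edgeR adjusted p = 1.64e-07). In cKO oocytes it was at 67.4 to 110 CPM at GV and at 68.9 to 106 CPM at MII. The difference between the changes was −1.28 (edgeR adjusted p = 0.000533). Nol12 rose in controls by 1.02 (edgeR adjusted p = 0.00023), with a change of 0.51 in cKO oocytes (0.0848). Riok1, a kinase that acts on the late small subunit, rose in both genotypes, by 0.79 in controls (edgeR adjusted p = 4.86e-05) and by 1.08 in cKO oocytes (0.00942). Riok3, a kinase of the same family, rose in cKO oocytes by 0.91 (edgeR adjusted p = 0.00682), with a control change of 0.26 (0.113).

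Of 22 genes of ITS2 removal and large subunit maturation, 6 rose and 2 fell in controls and 4 rose and 2 fell in cKO oocytes. Rpf2, which helps bring the 5S particle into the large subunit, went opposite ways. It was at 15.2 to 28.9 CPM in GV controls and at 56.0, 35.6 and 47.2 CPM in MII controls (log2 1.11, SE 0.20, edgeR adjusted p = 0.000238). In cKO oocytes it was at 11.3 to 21.7 CPM at GV and at 7.46, 3.38, 8.62 and 9.80 CPM at MII (log2 −1.06, SE 0.33, edgeR adjusted p = 0.0419). The stages did not overlap in either genotype, and the changes differed by −2.18 (edgeR adjusted p = 0.000482). Gnl2, a GTPase of the pre-60S particle, was at 200 to 250 CPM in GV controls and 249, 290 and 259 CPM in MII controls. In GV cKO oocytes it was at 166, 184 and 21.6 CPM in V1126 and 21.5 to 51.6 CPM in V1131, and in MII cKO eggs at 13.2 to 23.0 CPM. It fell in cKO oocytes by 1.98 (SE 0.62, edgeR adjusted p = 0.0428), with a difference between the changes of −2.26 (0.0153). Pes1, of the PeBoW complex needed for ITS2 processing, rose in cKO oocytes from 122 ± 21.1 (SD, n = 7) to 251 ± 21.5 CPM (n = 4), a log2 change of 1.04 (edgeR adjusted p = 0.0023). In controls Pes1 changed by −0.13 (adjusted p = 0.584), and the changes differed by 1.16 (edgeR adjusted p = 0.00226). Gnl3, the nucleolar GTPase nucleostemin, rose in both genotypes, by 1.65 (edgeR adjusted p = 1.21e-08) and 1.11 (0.00345). Bop1, the partner of Pes1, fell in controls by 1.40 (edgeR adjusted p = 0.00235), and Xrn2, a nuclear exonuclease, fell by 0.74 (0.000327).

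Of 14 genes of the nuclear exosome, 1 rose and 5 fell in controls and 1 rose and 2 fell in cKO oocytes. The ring subunits Exosc4 and Exosc7 fell in both: Exosc4 by 1.34 (edgeR adjusted p = 0.00631) and 1.88 (0.00416), Exosc7 by 1.54 (0.000382) and 1.11 (0.0228). Exosc1, a subunit of the exosome's cap, was at 31.6 to 65.3 CPM in GV controls and at 123, 134 and 143 CPM in MII controls (log2 1.51, edgeR adjusted p = 1.31e-06). In cKO oocytes it was at 32.6 to 51.5 CPM at GV and 49.2 to 60.1 CPM at MII (log2 0.39, edgeR adjusted p = 0.147), and the changes differed by −1.14 (0.00386). Dis3, the other exosome nuclease, rose in cKO oocytes by 1.33 (SE 0.32, edgeR adjusted p = 0.0151), where oocyte 2 of V1166 at 71.3 CPM stood above the other 3 at 27.3 to 31.6 CPM. Over the 5 lists the stage change differed between genotypes for 16 of 97 genes (edgeR), where 14.8% of all 19110 genes tested differed. This test was added after the values of Rpf2 had been seen.

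**Figure D5:**
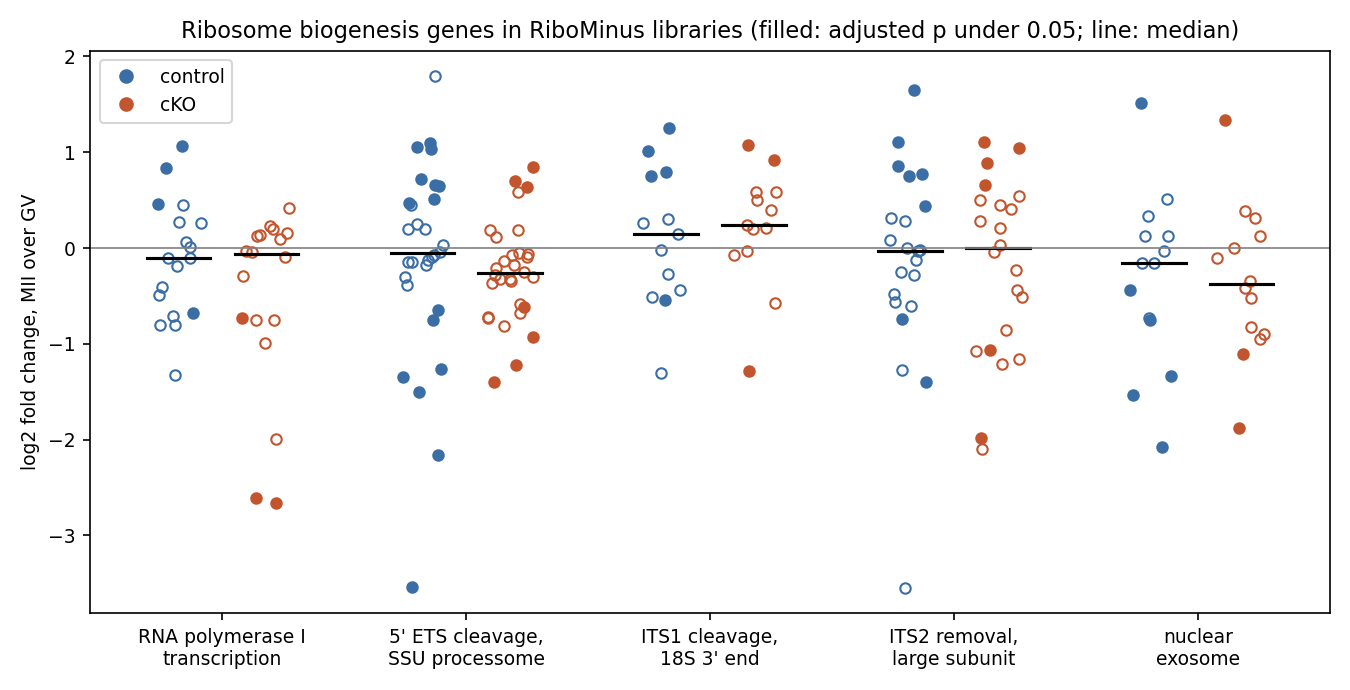
Log2 fold change, MII over GV, of each of the 97 genes in RiboMinus libraries by list, blue for controls and red for cKO, filled where the edgeR adjusted p was under 0.05, with lines at list medians. Of the genes of RNA polymerase I, the filled cKO points at −2.67 and −2.61 are Twistnb and Ubtf.

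In the polyA libraries, which came from other females and count only RNA caught by oligo(dT), 66 of 90 tested list genes were called in controls and 73 of 92 in cKO oocytes, where 63.4% and 74.8% of all tested genes were called. Of the list genes 21 were higher and 45 lower at MII in controls, beside 30.1% and 33.3% of all genes. In cKO oocytes 20 were higher and 53 lower, beside 33.1% and 41.7%. Ubtf was at 11.1 to 155 CPM in GV cKO and 5.23 to 18.8 CPM in MII cKO oocytes (n = 15 each, log2 −3.03, edgeR adjusted p = 3.16e-08). Its control change was −0.45 (edgeR adjusted p = 0.312). Gnl2 fell by 1.82 in cKO (edgeR adjusted p = 5.71e-06) and by 0.47 in controls (0.00241). Rpf2 fell by 2.001 in controls (edgeR adjusted p = 1.92e-06), opposite to its rise in the control RiboMinus libraries, and it fell by 1.75 in cKO oocytes (4.22e-10). Exosc1 likewise fell by 1.19 in polyA controls (edgeR adjusted p = 9.4e-07), and Twistnb rose by 1.28 there (1.23e-06) with a cKO change of 0.17 (0.542). The control changes of Rpf2 and Exosc1 thus had opposite directions in the 2 library types, and the cause was not tested. When polyA counts were scaled by library totals, the median log2 change of all genes became −0.46 instead of −0.08 for controls and −0.62 instead of −0.17 for cKO. The share of called genes that were higher at MII became 31.6% instead of 47.5% in controls and 27.9% instead of 44.3% in cKO oocytes. Under that scaling 13 list genes were called higher and 57 lower at MII in controls, and 12 higher and 71 lower in cKO oocytes. Of the list genes called, 2 in controls and 3 in cKO oocytes changed sign.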

How the data were processed

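Per the labels, the authors made the rRNA and RiboMinus libraries with the Ovation Solo system and the polyA libraries with oligo(dT) beads. The deposited values are raw counts per gene or per rRNA segment, with no normalization. The submitters' processing notes name cutadapt 2.5, FastQC 0.11.8, STAR 2.7.2a, SAMtools 1.9, HTSeq 0.9.1, R 3.5.1, DESeq2 1.24.0 and mm10. Strand setting and duplicate removal are not given in the sources used here. Counts outside the segments were 4.88% to 11.3% of the file and were left out. Spike-in amounts were not used here, so values are relative within an oocyte.

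Stage differences were means of log2((segment + 1)/(18S + 1)) or of the share of the 7-segment total, MII minus GV, with 1 added to each count. Two-sided exact permutation tests (scipy 1.17.1, numpy 2.4.6, Python 3.11.15) were adjusted by Benjamini-Hochberg over 12 tests (18S), 14 (total) or 7 (difference between genotypes). The smallest p was 0.0121 in controls and 0.00606 in cKO. The oocyte was the replicate, so p-values measure the spread between these oocytes. The adjustment of the spacer sum over both genotypes was added during the analysis, and whether it passed was read from the adjusted value after the raw values had been seen. Intervals of pooled counts are 95% and cover counting error only.

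Genes were fitted with edgeR 4.0.16 in R 4.3.3 (filterByExpr, TMM, quasi-likelihood test, adjusted over all genes tested), using the groups compared. CPM of single oocytes are TMM-scaled over the 22 RiboMinus libraries, except those of Exosc10, which, like means ± SD and polyA ranges, are TMM-scaled within the 2 groups compared. Marker CPM use library totals. Depth was 12319658 to 62675760 counts in RiboMinus and 5381816 to 8735914 in polyA libraries. Named genes were, for each list, the 2 largest rises and 2 largest falls among genes called in controls or in cKO (average log2 CPM 3 or more), and Exosc10. Alternatives included DESeq2 1.42.0. The scripts were tested on simulated data. Tables used pandas 2.3.3 and figures matplotlib 3.10.9. The members and lists were chosen with earlier results of these data known, and 1 entry was removed from a list after the files were read because its symbol names another mouse gene. The test of genes between genotypes, the ratios between spacers, the pooled ratios and leaving out each GV oocyte were not planned in advance.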

Additional observations from a re-analysis of the deposited data

Results flagged for a closer look

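The 28S to 18S ratio of oocyte 4 of V1131 was 3.088, far from the other 6 GV cKO oocytes, which were at 1.88 to 2.37. This was 1 of 24 sets of values examined, and chance picks about 1 in 20. The oocyte also had the highest ITS2, ITS1 and 3' ETS per 18S of its group. The part of its 18S level in those values was not tested.

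The stage change of the spacer sum differed between cKO and control oocytes by −2.33 on the log2 scale, and that of ITS2 over 18S by −1.66, each with an adjusted exact permutation p of 0.0292. Both differences rest on 3 MII control eggs of 1 female, and over the means of the 7 females each had an exact permutation p of 0.222. On average the spacer sum was mostly 5' ETS in GV cKO oocytes and mostly ITS2 in GV controls.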

How the results depend on the processing

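Every value here is a log2 difference or a count of calls. No paired analysis was possible because each female gave oocytes of 1 stage and 1 genotype and the oocyte numbers only name oocytes. For the spacer sum in cKO oocytes, 18S alone as the denominator gave −2.607 (adjusted p = 0.0485), past the threshold, and leaving out 1 oocyte at a time gave −3.118 to −2.435; only without oocyte 3 of V1126 did it pass (adjusted p = 0.019). The control spacer sum passed under no alternative run.

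For segment calls in cKO oocytes, edgeR gave 3 relative to 18S and 3 relative to the total. Leaving out 1 oocyte gave 0 to 3 relative to the total, with 3 only without oocyte 3 of V1126 (5' ETS −3.35, ITS1 −2.72, ITS2 −2.11, each adjusted p = 0.0444). Other denominators, added counts and females left out gave 0.

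The difference of the spacer sum between genotypes was −2.159 with female means (adjusted exact permutation p = 0.519), which misses the threshold, and ranged from −2.823 to −2.139 with 1 oocyte left out. It missed the threshold over 18S (−2.114) and without V1132 (−2.181), V1133 (−2.484), V1131 (−0.9416) or V1167 (−2.071). It also missed without any 1 MII control, or any 1 of 5 GV cKO oocytes (oocyte 4 of V1126 and the 4 of V1131).

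Some values that did not pass the test changed sign, among them the control 3' ETS (0.61 relative to 18S and 0.81 relative to the total) and the control ITS2 (−0.33). In controls relative to 18S these were the 3' ETS with 0 added (−0.2037), where GV controls at 0 counts drop out, or without V1132 (−0.06182). They were also 5.8S over 28S (0.1437), with DESeq2 size factors (0.03511), with TMM (0.2271) or without V1133 (0.04788). With TMM they were also ITS2 (0.05659) and 28S (0.08347). Relative to the total they were the 3' ETS with 0 added (−0.003258), again without the GV controls at 0 counts, and 5.8S under several settings. For 5.8S these were without V1132 (−0.08904), by edgeR (−0.001506) or with 1 oocyte left out (−0.02249 to 0.1342). In cKO oocytes they were 28S over 18S without V1126 (−0.08491) or V1166 (−0.3177) or with 1 oocyte left out (−0.2375 to 0.133). Relative to the total in cKO oocytes, 18S became 0.000432 with itself left out of the total, 0.01659 by edgeR, 0.06398 without V1126, 0.2272 without V1166 and −0.09587 to 0.1736 with 1 oocyte left out. In the same terms 28S became −0.02093 without V1126, −0.09048 without V1166 and −0.0639 to 0.03717 with 1 oocyte left out. None of these had an adjusted p under 0.05 in the main test.

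Differences between genotypes changed sign for ITS1 without V1132 (0.2686), V1131 (0.939) or V1167 (0.2499) and with 1 oocyte left out (−1.006 to 0.009255), for the 5' ETS without V1131 (0.8143) and for 28S without V1166 (−0.01779). The count of list genes called in cKO RiboMinus libraries was 1 without V1131, 7 without V1166, 30 without V1126, 29 by DESeq2 and 0 with counts summed per female. It was 14 to 22 with 1 of the 4 MII eggs left out, and GV oocytes were not left out singly for this count. Values of the 3' ETS and of ITS1 in MII controls are limited by depth, at 2 to 4 counts per egg. With counts summed per female the RiboMinus controls gave 41, where the lone MII female is assumed to vary like those at GV. For results that crossed a threshold the cause was not tested. Leaving out GV oocytes one by one was chosen after seeing the data.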
